A study of Mus musculus with 15 samples.

Results

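The mitochondrial ribosomal protein genes were examined in posterior eyecups, the tissue left after the neural retina is removed, which holds the retinal pigment epithelium, the choroid and the sclera. They were taken as every protein-coding gene whose symbol begins with Mrpl or Mrps and a number. There were 78 of them among 21976 protein-coding genes and 55421 genes in all, 49 with a large subunit name (Mrpl) and 29 with a small subunit name (Mrps), and 77 had enough reads to be tested among 18979 tested genes. RNA was sequenced from 15 mice of 2.5 months and both sexes on the C57BL/6J background. 4 were WT and 11 carried FUN025, a germline mutation in the gene Tmem135, whose transmembrane protein is found at mitochondria and peroxisomes. Of these, 6 had it on a single chromosome copy (FUN025/+) and 5 on both (FUN025/FUN025). The mutation is in every cell, so an effect in the eyecup cannot be assigned to a cell type, and no other allele or treatment was used in any group. In bulk tissue, fewer cells of a type and less RNA per cell cannot be told apart.

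The mitochondrial ribosome translates the few mRNAs made from mitochondrial DNA, all of which code for subunits of the respiratory chain and ATP synthase. Its rRNAs come from mitochondrial DNA, whereas its proteins are encoded by nuclear genes scattered over the chromosomes, translated in the cytosol and imported. Some of these proteins have counterparts in bacterial ribosomes and others are found only in mitochondria. The retinal pigment epithelium is rich in mitochondria and relies on oxidative metabolism. The cytosolic ribosome, built from a separate set of proteins, translates all other mRNAs and served as the comparison.

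The members lay on 17 chromosomes. RefSeq promoter windows on GRCm38.p6, which run from 250 bases before to 50 bases after a transcript start, were at hand for 69 of the 78 members, as 75 windows. The windows were searched on both strands for 4 short motifs linked to nuclear control of mitochondrial genes, none of which contains another. The ETS core bound by GABPA, CCGGAAG, occurred in 34.7% of the member windows, in 36.8% of the 68 windows of cytosolic ribosomal protein genes and in 8.86% of all 32851 windows. The YY1 core, AAGATGGC, occurred in 16% of the member windows, 11.8% of the cytosolic ones and 2.75% of all. The NRF1 core, GCATGCGC, occurred in 10.7%, 4.41% and 2.71%, and the SP1 box, GGGCGG, in 52%, 61.8% and 35.7%. These are matches of letters and are not shown to be bound. The 150 bases before the start are shown for 5 members that carry the results below, 5′ to 3′ on the strand of the gene, with motif matches in capitals. Mrpl52 (chr14:54426759-54426908, plus strand), with the lowest fold changes, has an ETS core on the reverse strand. Mrps18a (chr17:46110854-46111003, plus strand) has an ETS core on the forward strand. Mrps15 (chr4:126046778-126046927, plus strand) has an SP1 box on the reverse strand at 2 positions. Mrps21 (chr3:95871515-95871664, minus strand) and Mrpl47 (chr3:32736756-32736905, minus strand), which passed in opposite directions in FUN025/+, have none of the 4 motifs in the stretch shown. The RefSeq starts differ slightly from the gene spans given below for Mrps15, Mrps18a and Mrps21. That of Mrpl47 lies well inside its gene span, so the stretch shown for Mrpl47 does not precede the outermost 5′ end of the gene.
Mrpl52: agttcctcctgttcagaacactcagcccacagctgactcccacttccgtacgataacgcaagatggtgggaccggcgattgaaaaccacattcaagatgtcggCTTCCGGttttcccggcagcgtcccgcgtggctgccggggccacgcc
Mrps18a: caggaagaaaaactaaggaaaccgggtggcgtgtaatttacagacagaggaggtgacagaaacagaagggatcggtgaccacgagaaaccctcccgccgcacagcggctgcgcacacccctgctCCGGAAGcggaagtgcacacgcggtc
Mrps15: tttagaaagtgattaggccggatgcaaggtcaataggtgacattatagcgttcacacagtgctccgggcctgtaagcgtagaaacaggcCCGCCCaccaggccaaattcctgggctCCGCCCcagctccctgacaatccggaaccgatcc
Mrps21: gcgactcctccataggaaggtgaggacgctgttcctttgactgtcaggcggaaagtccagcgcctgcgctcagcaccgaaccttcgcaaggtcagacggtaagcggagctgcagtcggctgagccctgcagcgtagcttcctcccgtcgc
Mrpl47: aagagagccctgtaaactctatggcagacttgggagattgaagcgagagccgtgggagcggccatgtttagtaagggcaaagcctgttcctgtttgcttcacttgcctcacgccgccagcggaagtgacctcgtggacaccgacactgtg
Another shared feature was the neighbourhood. In 18 of the 78 members (23.1%) a protein-coding gene on the opposite strand began within 1000 bases upstream, against 6.76% of all protein-coding genes. These neighbours included Sars2, the mitochondrial seryl-tRNA synthetase, 172 bases from Mrps12, and Fau, which encodes a precursor of a cytosolic ribosomal protein, 59 bases from Mrpl49.

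Libraries differed in ways that bear on every comparison with WT. The 4 WT libraries held 18094977 to 20029919 counts and the 11 mutant libraries 10903183 to 15038383, so depth and genotype cannot be told apart. Among the tested members the lowest count in any library was 61. Levels are given as CPM, the read count relative to library size after scaling between libraries. Tmem135 itself was at 59.8 to 66.2 CPM in WT, 66.1 to 86.3 in FUN025/+ and 82.5 to 94 in FUN025/FUN025, and counts per gene cannot show the mutation. The summed level of 6 markers of the pigment epithelium was 10560 to 14120 CPM over all libraries, with Ttr as the largest part and Best1 between 1.4 and 2.73 CPM. Singly, 2 of the 6 were lower in FUN025/+ than in WT (median log2 fold change 0.06) and 5 of the 6 in FUN025/FUN025 (median -0.13), Ttr being the exception there, and none passed the test. The summed CPM of 6 markers of the choroid endothelium was 869.1 to 1005 in WT, 682.1 to 940.9 in FUN025/+ and 611.2 to 771.1 in FUN025/FUN025. Of these 6, 5 were lower in FUN025/+ (median -0.17, 2 passing) and 6 in FUN025/FUN025 (median -0.34, 4 passing). The summed CPM of 9 skeletal muscle markers was 5151 to 9659 in WT, 2716 to 7035 in FUN025/+ and 4167 to 5065 in FUN025/FUN025, with all 9 markers lower in both comparisons with WT and 3 of the 9 passing the test in each. The summed CPM of 8 rod markers was 345.1 to 2413 in WT, 183.6 to 767.1 in FUN025/+ and 181.5 to 507.2 in FUN025/FUN025, and WT replicate 2 stood far above the other libraries. All 8 rod markers were lower in both comparisons with WT, with medians of -1.79 and -1.86 on the log2 scale, and 1 passed, in FUN025/FUN025. Of 5 markers of scleral fibroblasts, 5 were lower in FUN025/+ (median -0.04) and 4 in FUN025/FUN025 (median -0.19), and none passed. None of these endothelial, muscle and rod markers was at 0 in any library. 3 of 5 lens markers (Cryaa, Cryba2 and Crygs) were at 0 in at least 1 library, and the summed lens level was 3.73 to 16.1 CPM in WT, 3.67 to 80.3 in FUN025/+ and 3.85 to 179 in FUN025/FUN025. All 5 lens markers were higher in both comparisons with WT (medians 2.01 and 3.24), and none passed. Of 5 macrophage markers, 3 were higher in FUN025/+ (median 0.06, none passing) and 5 in FUN025/FUN025 (median 0.24, 1 passing). Of 5 melanocyte markers, 3 were higher in each (medians 0.0092 and 0.0091), and none passed. WT replicate 4 stood apart for the ribosomal genes. It was the highest of the 4 WT mice in 59 of 77 members and in 74 of 79 cytosolic ribosomal protein genes, and it also had the highest muscle and endothelial marker sums. The part of depth and of endothelial, pigment epithelium, fibroblast, macrophage, muscle, rod and lens content in the results below was not tested beyond the fits named beside them.

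In the WT eyecup the members were expressed at low to moderate levels. Their counts together made up 0.209 to 0.237% of each WT library, and the median member stood at 10.5 CPM per kb of exon in WT. The exon length used here joins all isoforms, so genes with long rare isoforms appear lower. Mrps21, a small subunit protein of the bacterial type, was highest at 51.9 CPM per kb. Mrpl34, one of the smallest proteins of the large subunit, followed at 39.3 and Mrpl27, which lies near the peptidyl transferase centre, at 32.1. Among those detected the lowest were Mrps35 at 2.26 and Mrps22 at 2.3, both small subunit proteins particular to mitochondria. Mrpl53 (chr6:83109040-83109939, plus strand) had 0 counts in all 15 libraries, which allows up to 0.15 to 0.282 CPM per library from counting error alone. On the same strand 88% of its exon bases are also annotated to other genes, chiefly the readthrough gene Gm42688, which had 26 to 86 counts per library, so reads from Mrpl53 could not be assigned to it and its level is unknown.

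The typical member was slightly lower in the mutants than in WT. In FUN025/+ against WT, 62 of 77 members had a negative log2 fold change and the median was -0.12 (0.922-fold), where the median over all 18979 tested genes was -0.0023. The test (edgeR, quasi-likelihood, adjusted over all tested genes) passed 14 members as lower and 1 as higher. That is 18.2% lower and 1.3% higher, against 6.61% and 7.09% of all tested genes. In FUN025/FUN025 against WT, 63 of 77 were negative with a median of -0.12 (0.917-fold) and 10 passed as lower (13%) with none higher, where 7.02% of all tested genes passed as lower and 7.03% as higher. At an unadjusted p under 0.05 that comparison had 24 of 77 members lower and 1 higher. Of all 18979 tested genes, 2854 were lower and 2577 higher at that threshold. Neither DESeq2 nor limma-voom called a member higher in that comparison. In 9 members every FUN025/+ mouse was below every WT mouse (11.7%, against 5.18% of all tested genes). In 11 members every FUN025/FUN025 mouse was (14.3%, against 7.50% of all). Both comparisons use the same 4 WT mice, so their similarity is not independent evidence.

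**Figure D1:**
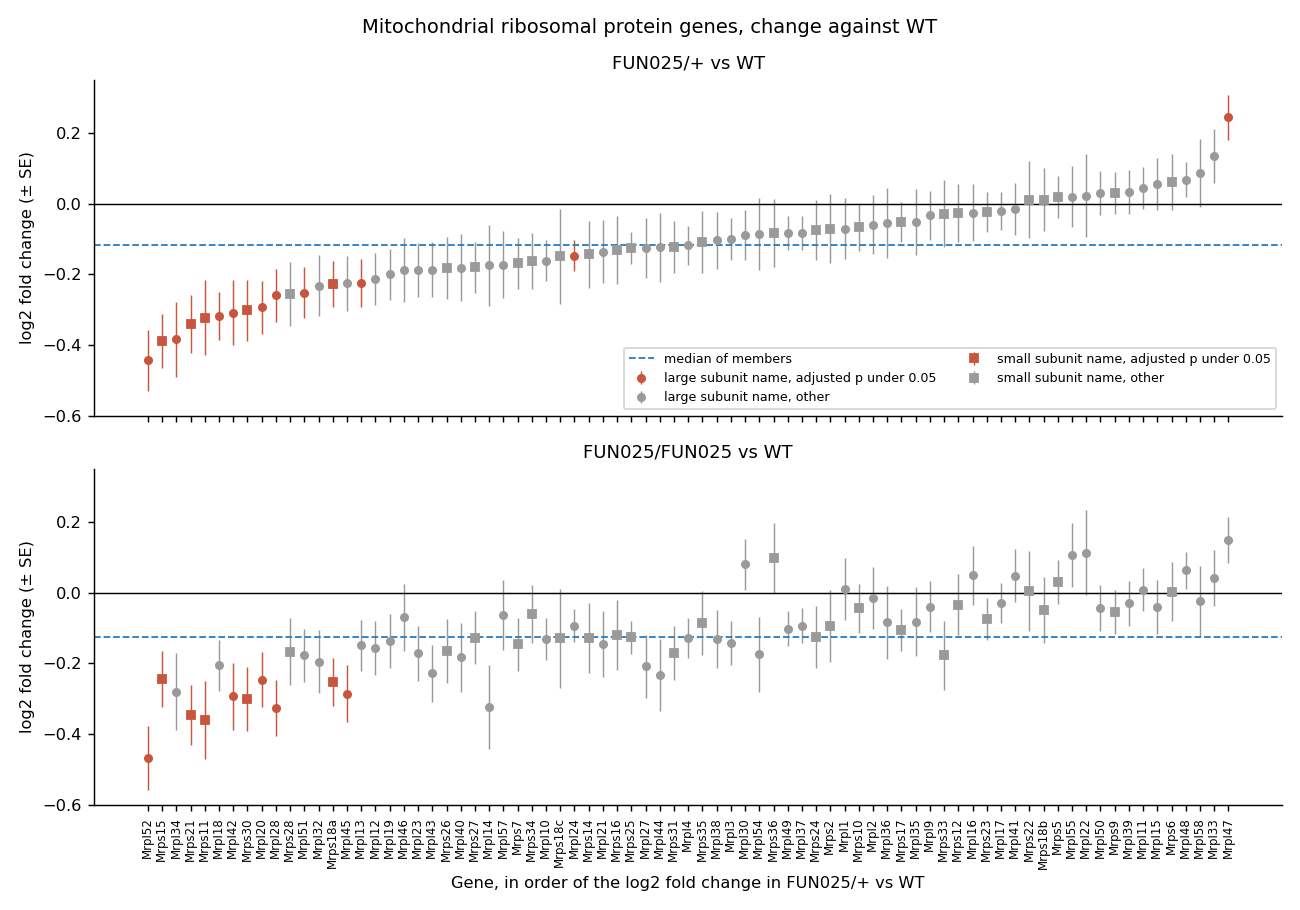
The log2 fold change against WT of each of the 77 tested members (points, with 1 standard error) is shown for FUN025/+ above and FUN025/FUN025 below, in the same gene order. Most points lie below 0 with a median near -0.12 (dashed line), 14 members in the upper panel and 10 in the lower passed the test as lower, and Mrpl47 alone passed as higher.

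The size of this shift rested in part on WT replicate 4. Without that mouse the medians were -0.05 and -0.06. The members passing as lower were then 3 in FUN025/+ (Mrpl52, Mrps15 and Mrpl18) and 1 in FUN025/FUN025 (Mrpl52), with Mrpl47 still higher in FUN025/+. In that fit 7.48% and 7.93% of all genes passed, in both directions together, so the members' share was below that of all genes. With both WT replicates 2 and 4 left out, none passed in either comparison by edgeR, 9 and 8 members were lower at an unadjusted p under 0.05, 3.21% and 4.33% of all genes passed, and the medians were -0.07 and -0.06. With muscle and rod marker levels as covariates the medians stayed at -0.11 and -0.11, but only Mrps14 passed in each comparison, named here after its value was seen, and the calls over all genes fell from 13.7% to 0.896% and from 14% to 2.41%.

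**Figure D2:**
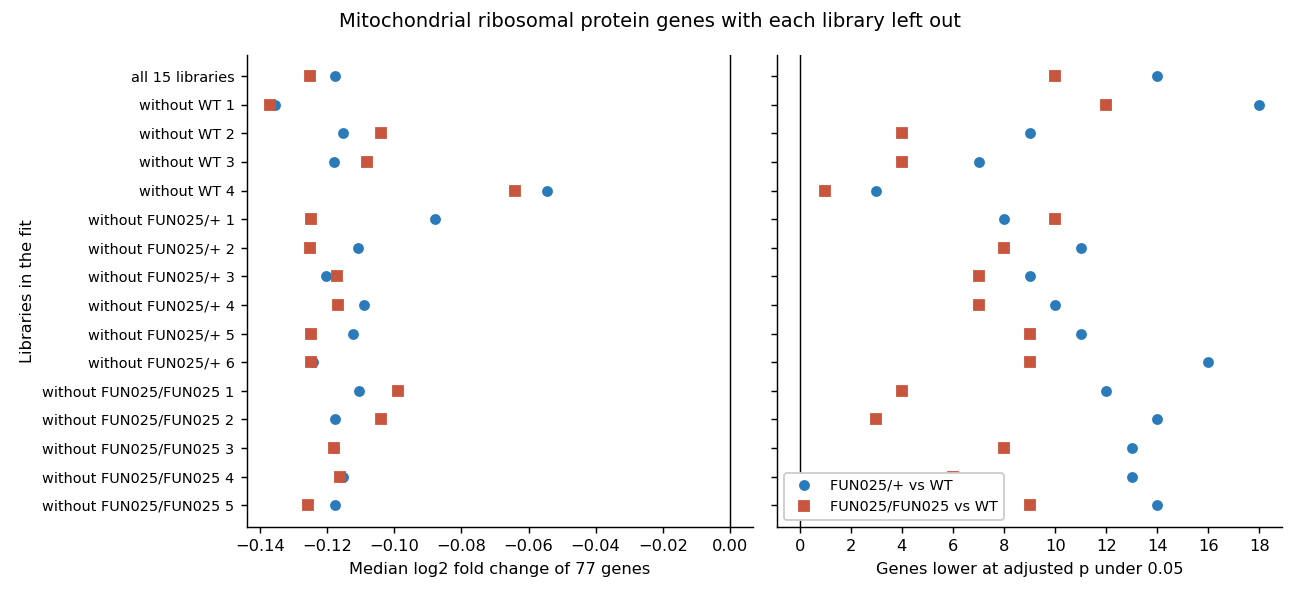
The median log2 fold change of the 77 members (left) and the number passing as lower (right) are shown for all 15 libraries and with each library left out, for both comparisons with WT. Leaving out WT replicate 4 moves the medians to -0.05 and -0.06 and the counts to 3 and 1, the values nearest to 0.

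By mouse, the mean log2 CPM over members was 4.61, 4.66, 4.68 and 4.80 in the 4 WT mice. It was 4.47 at the lowest, 4.58 in the median and 4.63 at the highest of the FUN025/+ mice. In the FUN025/FUN025 mice it was 4.54, 4.50, 4.58, 4.61 and 4.63. WT replicate 4 lay above all others, WT replicate 1 fell within the range of both mutant groups, and the other WT mice lay just above them.

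**Figure D3:**
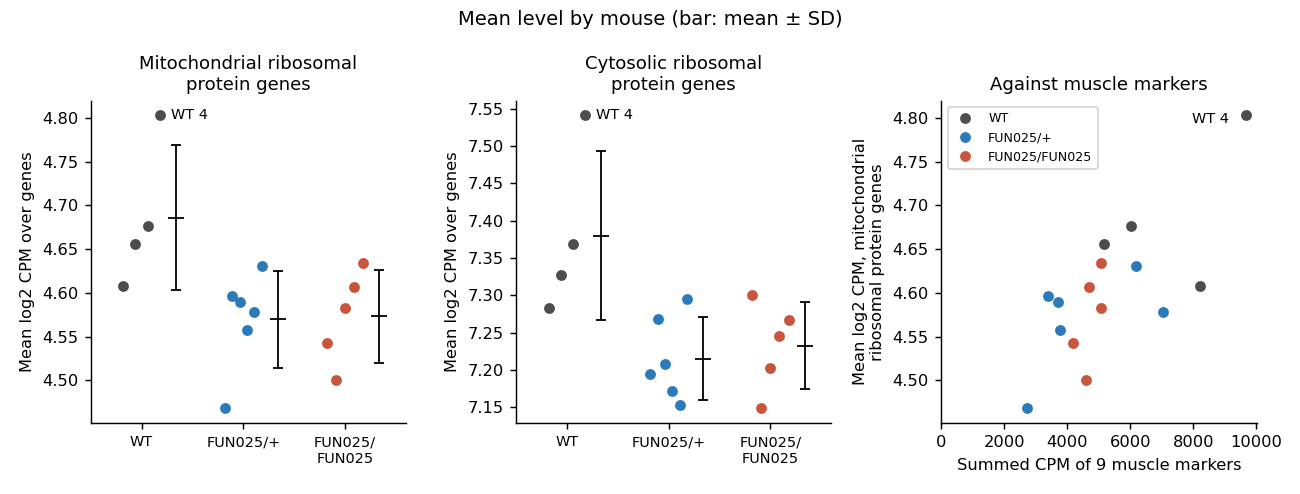
Mean log2 CPM by mouse is shown over the mitochondrial (left) and cytosolic (middle) ribosomal protein genes, with the group mean and SD beside the points, and over the mitochondrial genes against the summed CPM of 9 muscle markers (right). WT replicate 4 is highest in both gene sets (4.80 and 7.54) and has the highest muscle sum (9659), followed by WT replicate 1 (8217), which lies within the mutant range for the members.

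The individual members that passed the test included proteins of both subunits. Mrpl52, a large subunit protein found only in mitochondria, had the lowest fold change in both comparisons. Mrpl52 (chr14:54426909-54429756, plus strand), whose promoter is shown above, was at 18.4, 21.5, 20.8 and 22 CPM in the WT mice. In FUN025/+ it ranged from 13.3 to 17 with a median of 15.5, and in FUN025/FUN025 it was 16.2, 15.5, 13.3, 15.3 and 14.3. Every mutant mouse was below every WT mouse. Mrpl52 fell by 0.44 ± 0.0864 on the log2 scale (SE, adjusted p = 0.00241) in FUN025/+ and by 0.47 ± 0.0902 (adjusted p = 0.00213) in FUN025/FUN025. It passed in both comparisons whichever single library was left out.

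Mrps21 (chr3:95862634-95871519, minus strand), the most abundant member per kb, was at 34.4, 35.6, 40.5 and 43 CPM in WT. It ranged from 27.2 to 34 with a median of 30.2 in FUN025/+, and was 28, 27.7, 32.8, 29.6 and 33 in FUN025/FUN025. The groups did not overlap, though the highest FUN025/+ mouse came close to the lowest WT mouse. Mrps21 fell by 0.34 ± 0.0809 on the log2 scale in FUN025/+ (adjusted p = 0.00958) and by 0.35 ± 0.0844 in FUN025/FUN025 (adjusted p = 0.0111). Without WT replicate 4 its adjusted p was 0.0579 and 0.0577.

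Mrps15 (chr4:126046925-126055532, plus strand) is a small subunit protein of the bacterial type that binds the rRNA. It was at 21.2, 22.3, 22.9 and 23 CPM in WT, from 15.2 to 20.1 with a median of 17 in FUN025/+, and 19, 18, 21.2, 18.3 and 18 in FUN025/FUN025. All FUN025/+ mice were below WT, whereas FUN025/FUN025 replicate 3 reached the lowest WT mouse. The log2 fold change of Mrps15 was -0.39 ± 0.077 (adjusted p = 0.00275) in FUN025/+ and -0.24 ± 0.08 (adjusted p = 0.0499) in FUN025/FUN025, the latter just inside the threshold. The FUN025/FUN025 call held in 4 of 15 fits with a single library left out and in 5 of 16 other alternatives. The FUN025/+ call held in 15 and 14 of these. With muscle and rod covariates the FUN025/FUN025 change was 0.00103 (adjusted p = 0.998).

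Mrps18a and Mrps30 carry small subunit names, but structures of the mammalian mitoribosome place both proteins in the large subunit. Mrps18a (chr17:46110986-46128910, plus strand) was at 52.2, 58.3, 56 and 59.2 CPM in WT, from 45.8 to 50.9 with a median of 47.9 in FUN025/+, and 41.8, 42.5, 48.8, 50.1 and 53.8 in FUN025/FUN025. The FUN025/+ mice lay below WT, and 1 FUN025/FUN025 mouse reached into the WT range. Mrps18a changed by -0.23 ± 0.0647 (adjusted p = 0.0259) and -0.25 ± 0.0674 (adjusted p = 0.0187) on the log2 scale. Mrps30 (chr13:118378381-118387252, minus strand) was at 18.1, 19.8, 21.8 and 22.1 CPM in WT, from 13.7 to 19.2 with a median of 16.7 in FUN025/+, and 17.1, 15.5, 17.1, 16.4 and 16.9 in FUN025/FUN025. Here it was the FUN025/FUN025 mice that did not overlap with WT. Mrps30 fell by 0.30 ± 0.0864 in FUN025/+ (adjusted p = 0.0272) and by 0.30 ± 0.09 in FUN025/FUN025 (adjusted p = 0.0329).

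Mrpl28 (chr17:26123500-26126613, plus strand), a large subunit protein of the bacterial type, was at 30.7, 32.6, 32.9 and 37 CPM in WT, from 23.7 to 31.3 with a median of 28.5 in FUN025/+, and 26, 25.1, 26.3, 28.9 and 26.7 in FUN025/FUN025. All FUN025/FUN025 mice were below WT, and 1 FUN025/+ mouse was not. Mrpl28 fell by 0.26 ± 0.0752 (adjusted p = 0.0285) and by 0.33 ± 0.0785 (adjusted p = 0.0105) on the log2 scale. Mrpl20, which joins the large subunit rRNA early in assembly of bacterial ribosomes, was at 31.2, 31.4, 34.8 and 39.9 CPM in WT and at 24.9 to 29.6 with a median of 28.2 in FUN025/+. In FUN025/FUN025 Mrpl20 was at 28, 28.1, 31.5, 26.3 and 30.9, overlapping WT, and it changed by -0.29 ± 0.0749 (adjusted p = 0.0147) and -0.25 ± 0.078 (adjusted p = 0.0427).

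Mrpl42, a large subunit protein found only in mitochondria, and Mrps11, a small subunit protein near the mRNA path, also passed in both comparisons. Mrpl42 changed by -0.31 ± 0.0915 (adjusted p = 0.0323) and -0.29 ± 0.0953 (adjusted p = 0.0474). Mrps11 changed by -0.32 ± 0.106 (adjusted p = 0.0496) and -0.36 ± 0.11 (adjusted p = 0.0365), with both groups overlapping WT. With single libraries left out, Mrpl42 passed in 10 of 15 fits in FUN025/+ and 3 in FUN025/FUN025, and Mrps11 in 5 and 8. Of the exon bases of Mrps11, 7.97% are shared with Mrpl46 on the opposite strand, and no source used here states that strand was used in counting.

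Several members passed in 1 comparison only, which does not show that the mutant groups differ. In FUN025/+ these were Mrpl18 (-0.32 ± 0.0684, adjusted p = 0.00491), Mrpl34 (-0.38 ± 0.105, adjusted p = 0.0219) and Mrpl51 (-0.25 ± 0.0726, adjusted p = 0.0276), all of the large subunit. Their log2 fold changes in FUN025/FUN025 were -0.21, -0.28 and -0.18 with adjusted p = 0.0612, 0.0977 and 0.129. Mrpl13 (-0.22 ± 0.0685, adjusted p = 0.037) and Mrpl24 (-0.15 ± 0.0448, adjusted p = 0.0368) completed the 14 and are named here after their values were seen. In FUN025/FUN025 the member that passed there alone was Mrpl45, a large subunit protein near the exit tunnel at the inner membrane. It was at 21.8, 25.8, 24.5 and 25.6 CPM in WT and 20.4, 18.6, 20, 20.6 and 20.5 in FUN025/FUN025, a change of -0.29 ± 0.0806 (adjusted p = 0.0252), beside -0.23 ± 0.0774 (adjusted p = 0.0596) in FUN025/+.

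Mrpl47 (chr3:32725397-32737605, minus strand), a large subunit protein at the exit of the tunnel through which new proteins leave, went the other way. It was at 40.3, 37.2, 40.2 and 40.5 CPM in WT, from 39.2 to 50.5 with a median of 47.9 in FUN025/+, and 40.5, 45.1, 42.3, 45 and 46.5 in FUN025/FUN025. 5 of the 6 FUN025/+ mice lay above every WT mouse. The log2 fold change of Mrpl47 was 0.25 ± 0.063 (adjusted p = 0.0153) in FUN025/+ and 0.15 ± 0.0654 (adjusted p = 0.139) in FUN025/FUN025. The call in FUN025/+ was lost with a GC content offset, with a replicate block, with muscle and rod covariates and without WT replicates 2 and 4, at fold changes between 0.20 and 0.30. Of its exon bases 24.2% overlap Actl6a and Ndufb5 on the opposite strand, so part of its count may come from those genes.

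**Figure D4:**
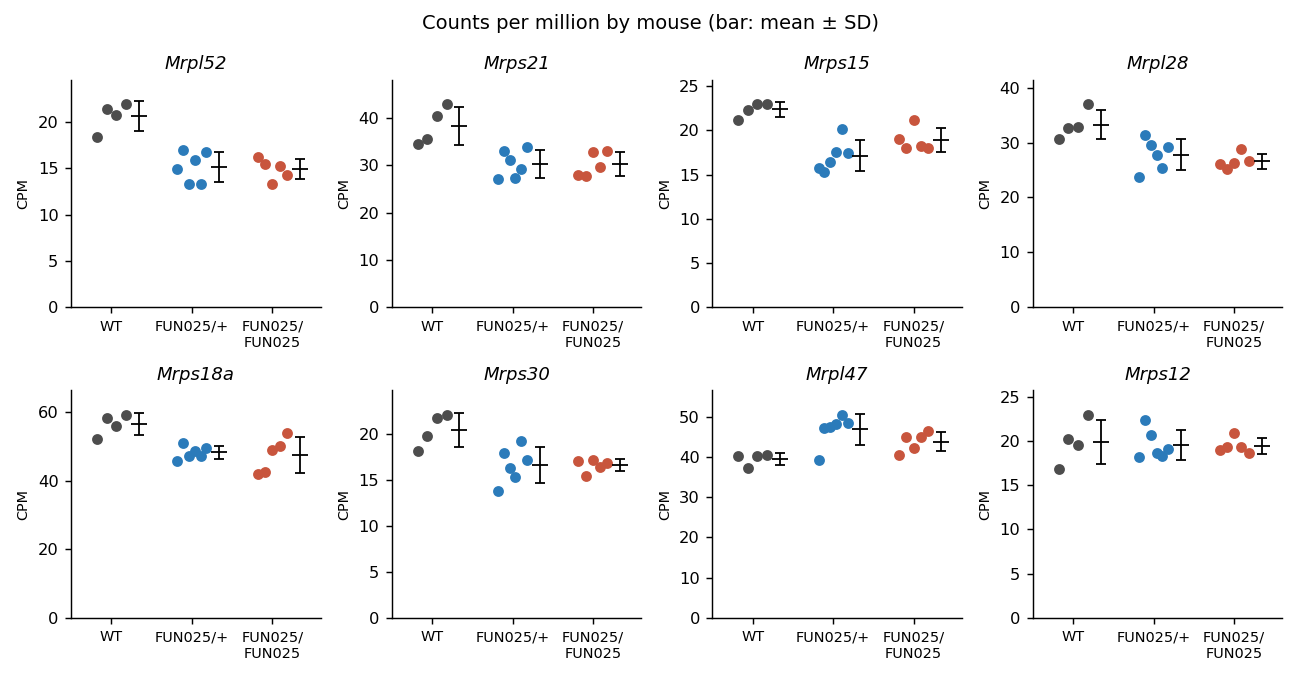
CPM by mouse is shown for 8 members in WT, FUN025/+ and FUN025/FUN025, with the group mean and SD beside the points and axes from 0. Mrpl52 and Mrps21 are lower in every mutant mouse than in any WT mouse, Mrpl47 is higher in 5 of the 6 FUN025/+ mice, and Mrps12 overlaps in all groups.

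Other members with known special roles did not pass. Mrpl12, a stalk protein that also binds the mitochondrial RNA polymerase, was at 29.4, 34.4, 35.6 and 39.6 CPM in WT, from 27.6 to 31 with a median of 30.6 in FUN025/+, and 28.2, 29.6, 34.4, 31.4 and 32.7 in FUN025/FUN025. Mrpl12 stood at -0.21 ± 0.0735 in FUN025/+ (adjusted p = 0.0615) and at -0.16 ± 0.0764 in FUN025/FUN025 (adjusted p = 0.189) on the log2 scale. Mrps12, which holds the decoding centre and shares its upstream region with Sars2, had -0.03 ± 0.083 and -0.03 ± 0.0863. Mrpl58, a peptidyl-tRNA hydrolase that rescues stalled ribosomes, had 0.09 ± 0.0959 and -0.02 ± 0.0996. Mrps34 had -0.16 ± 0.0785 and -0.06 ± 0.0816, and 77.8% of its exon bases overlap other genes. Mrps36, which is now counted as a part of the 2-oxoglutarate dehydrogenase complex rather than of the mitoribosome, had -0.08 ± 0.0953 and 0.10 ± 0.0988. The largest positive values after Mrpl47 were Mrpl33 (0.14 ± 0.0761) and Mrpl58 in FUN025/+ and Mrpl22 (0.11 ± 0.121) and Mrpl55 (0.11 ± 0.0903) in FUN025/FUN025, with adjusted p between 0.253 and 0.577.

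The shift was of like size in different classes of members. Over the 48 tested genes with large subunit names the median log2 fold change was -0.11 in FUN025/+ and -0.11 in FUN025/FUN025. Of these, 9 (18.8%) and 5 (10.4%) passed as lower, against 6.61% and 7.02% of all tested genes. Over the 29 with small subunit names, among them Mrps18a, Mrps30 and Mrps36, the median was -0.12 and -0.12. Here 5 (17.2%) and 5 (17.2%) passed as lower, of which Mrps18a and Mrps30 were counted in both. The members were also divided by protein number after the values were seen. The 44 with numbers up to 36 (Mrpl) or 21 (Mrps), which mostly follow bacterial names, had medians of -0.12 and -0.12. Of these 44, 10 (22.7%) and 6 (13.6%) passed as lower. The 33 tested members with higher numbers had -0.11 and -0.12, with 4 (12.1%) and 4 (12.1%) lower. Most of these are particular to mitochondria, but Mrpl47 and Mrps24 have bacterial counterparts. Across the 77 members the fold change had a Spearman correlation with exon length of 0.22 and 0.22 and with GC content of -0.27 and -0.28, a description across genes from the same libraries.

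No member passed the test between the mutant genotypes. In FUN025/FUN025 against FUN025/+ the median over members was -0.01 and none of 77 passed by edgeR, DESeq2 or limma-voom, where 0.195% of all tested genes passed as lower and 0.327% as higher. At an unadjusted p under 0.05 there was 1 member, Mrpl30, which was higher in FUN025/FUN025 (0.17 ± 0.0667, adjusted p = 0.634). Of all 18979 tested genes, 553 were higher and 630 lower at that threshold. Mrpl30 was at 28.4, 30.3, 29.2, 28.5 and 29.6 CPM in FUN025/FUN025 and from 23.2 to 28 with a median of 25.9 in FUN025/+, and in WT it was at 28.7, 24.4, 26 and 31.5. The mutant groups were apart, and the WT mice spanned both. The largest difference in size was Mrps36 at 0.18 ± 0.0908.

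The cytosolic ribosomal protein genes had medians close to those of the mitochondrial ones but a wider spread. All 79 were tested. Their median log2 fold change was -0.14 in FUN025/+ and -0.13 in FUN025/FUN025, with 34 (43%) and 31 (39.2%) passing as lower and 3 and 3 as higher, against 6.61% and 7.02% of all tested genes as lower and 7.09% and 7.03% as higher. The middle range, from the lower to the upper quartile, was -0.30 to 0.02 in FUN025/+ for the cytosolic genes and -0.19 to -0.03 for the mitochondrial ones. Large falls were those of Rps29 (-1.04 ± 0.0657 in FUN025/+ and -1.04 ± 0.069 in FUN025/FUN025) and Rps12 (-0.93 ± 0.063 and -0.90 ± 0.0661) of the small subunit and, of the large subunit, Rpl35 (-0.58 ± 0.0675 and -0.55 ± 0.0705), Rplp2 (-0.53 ± 0.0873 and -0.55 ± 0.0912) and Rpl39 (-0.52 ± 0.0646 and -0.55 ± 0.0675). The lowest mitochondrial value was -0.47. The 3 that passed as higher were Rps2 (0.39 ± 0.0767 and 0.37 ± 0.0794), Rpl15 (0.28 ± 0.0448 and 0.29 ± 0.0464) and Rplp0 (0.27 ± 0.0597 and 0.26 ± 0.0619). All of the genes named here passed in both comparisons. Cytosolic genes share more sequence with other genes than mitochondrial ones do, with a median of 28.5% of their stretches of 31 bases found elsewhere in the transcripts against 6.51%, so their counts are less certain. The distance between the gene sets did not separate the groups. The mean log2 CPM of members minus that of cytosolic genes was -2.74 to -2.67 in WT, -2.73 to -2.57 in FUN025/+ and -2.76 to -2.62 in FUN025/FUN025. Without WT replicate 4 the cytosolic medians were -0.07 and -0.07, with 25 and 22 passing as lower. With the muscle and rod covariates they were -0.26 and -0.25, further from 0 than the mitochondrial ones. In that fit 13 and 17 cytosolic genes passed as lower, where 0.896% and 2.41% of all genes passed in both directions together. Without WT replicates 2 and 4, 18 and 16 passed as lower, where 3.21% and 4.33% of all genes passed.

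**Figure D5:**
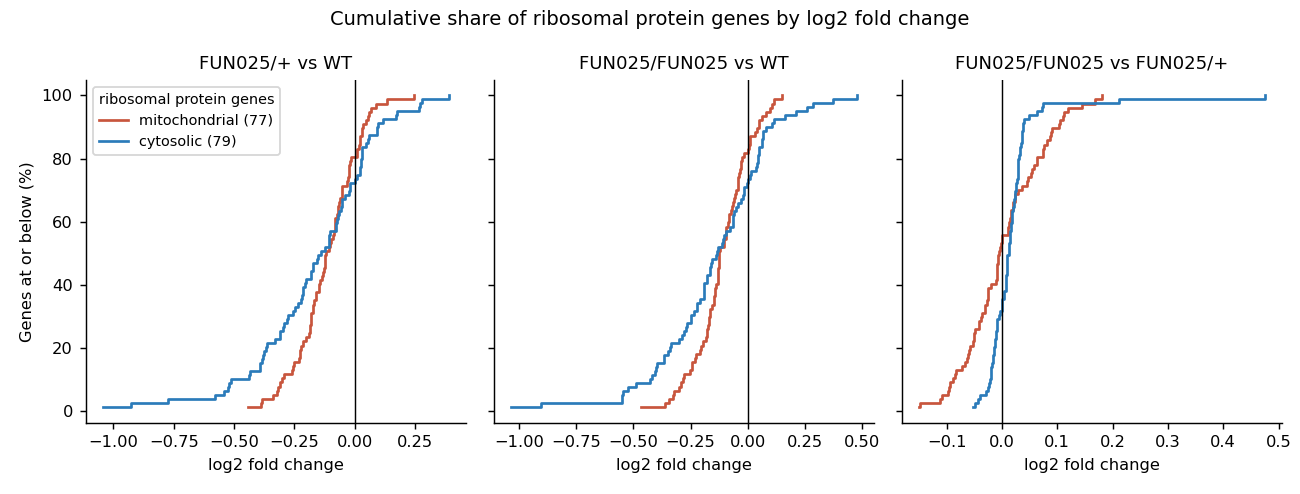
The share of genes (percent) at or below each log2 fold change is drawn for the 77 mitochondrial and 79 cytosolic ribosomal protein genes in each comparison. Against WT the curves cross near their medians and the cytosolic one is wider, and between the mutant genotypes the medians are -0.01 for the mitochondrial and 0.01 for the cytosolic genes.

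Other genes needed for mitochondrial translation were followed by function. The counts passing in these short lists stand beside 6.61% of all tested genes lower and 7.09% higher in FUN025/+, and 7.02% and 7.03% in FUN025/FUN025. Of 5 mitoribosomal proteins with other names, Gadd45gip1, a large subunit protein, fell (-0.37 ± 0.0688, adjusted p = 0.00177, and -0.35 ± 0.0717, adjusted p = 0.00318). It was at 37.1 to 51 CPM in WT, 32.6 to 34.1 in FUN025/+ and 31.7 to 35.7 in FUN025/FUN025, with no overlap. The other 4 did not pass in either comparison.

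Of 26 assembly and rRNA modification genes, 3 (11.5%) passed as lower in each comparison, with medians of -0.10 and -0.09. Noa1, a GTPase needed for assembly of the small subunit, fell by 0.47 ± 0.0846 (adjusted p = 0.00122) and by 0.30 ± 0.0878 (adjusted p = 0.0297) on the log2 scale. Ngrn, which supports the large subunit rRNA, fell by 0.16 ± 0.0462 (adjusted p = 0.0263) and by 0.19 ± 0.0481 (adjusted p = 0.013). Eral1, a chaperone of the small subunit rRNA, was at -0.11 ± 0.0657 in FUN025/+ (adjusted p = 0.287) and fell by 0.21 ± 0.0685 (adjusted p = 0.0491) in FUN025/FUN025.

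Translation factors had medians near 0 (-0.02 and 0.0025). Of 15, none passed in FUN025/+ by edgeR. There, 3 were lower at an unadjusted p under 0.05, beside 2834 of all 18979 tested genes. In FUN025/FUN025 1 passed. That gene was Gfm2, a factor for ribosome recycling, which rose by 0.16 ± 0.0505 (adjusted p = 0.0414). Among 20 genes for mitochondrial aminoacyl-tRNA synthetases and related enzymes, Lars2, the leucyl-tRNA synthetase, rose by 2.23 ± 0.188 (adjusted p = 6.24e-06) and 2.30 ± 0.193 (adjusted p = 4.52e-06) on the log2 scale. Lars2 was at 81.5 to 89.6 CPM in WT, 293 to 544 in FUN025/+ and 300 to 567 in FUN025/FUN025, far apart. It was the only gene of that list to pass as higher, though 6 of the 20 in FUN025/+ and 7 in FUN025/FUN025 had positive fold changes. Aars2, the alanyl-tRNA synthetase (-0.27 ± 0.0758, adjusted p = 0.0255, and -0.29 ± 0.079, adjusted p = 0.0196), and Tars2, the threonyl-tRNA synthetase (-0.21 ± 0.0562, adjusted p = 0.0191, and -0.24 ± 0.0586, adjusted p = 0.0123), fell in both. Cars2, the cysteinyl-tRNA synthetase, fell in FUN025/FUN025 (-0.26 ± 0.0772, adjusted p = 0.0296).

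Of 10 genes for transcription and upkeep of mitochondrial DNA, 3 (30%) passed as lower in FUN025/+ and 2 (20%) in FUN025/FUN025. Ssbp1, the single-strand binding protein, changed by -0.19 ± 0.0623 (adjusted p = 0.0486) and -0.29 ± 0.065 (adjusted p = 0.00579). Twnk, the helicase, was lower in FUN025/+ (-0.25 ± 0.0682, adjusted p = 0.0197). Polg, the DNA polymerase, was lower in FUN025/FUN025 (-0.20 ± 0.046, adjusted p = 0.00783). Among 10 nuclear regulators, Creb1 rose (0.17 ± 0.043, adjusted p = 0.0126, and 0.17 ± 0.0446, adjusted p = 0.0193) and Yy1, whose core motif was searched above, fell in FUN025/FUN025 (-0.13 ± 0.0381, adjusted p = 0.0317).

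The rRNA of the large subunit, mt-Rnr2, fell by 0.68 ± 0.139 (adjusted p = 0.00492) in FUN025/+ and by 0.47 ± 0.146 (adjusted p = 0.0421) in FUN025/FUN025 on the log2 scale. Its level was 1680 to 2137 CPM in WT, 959 to 1429 in FUN025/+ and 1130 to 1719 in FUN025/FUN025. The small subunit rRNA, mt-Rnr1, did not pass in either comparison (-0.38 and -0.25). mRNA was enriched with oligo(dT) beads before sequencing, so these rRNA reads are what remained after that step. Of 13 mitochondrially encoded mRNAs, 4 (30.8%) passed as higher in each comparison. The largest were mt-Co3 (2.15 ± 0.275 and 2.0 ± 0.28) and mt-Atp8 (1.77 ± 0.239 and 1.62 ± 0.246). mt-Co3 was at 17.5 to 33.7 CPM in WT and 77.2 to 180 in FUN025/+, a small part of a summed level of the 13 mRNAs of 32180 to 36620 and 28340 to 39270. 99.9% of the 31-base stretches of mt-Co3 also occur in another annotated gene, and mt-Atp8 was below 5 CPM in every library, so both are uncertain.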

How the data were processed

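Per the labels, posterior eyecups of each mouse were pooled, frozen after collection within the same hours of the day, and nothing states that mice came from separate litters or library batches. The submitters' processing notes name FastQC 0.11.8, Trimmomatic 0.39, HISAT2 2.1.0, SAMtools and featureCounts 2.0.0 with GRCm38. The authors sequenced poly(A)-enriched, paired-end libraries, and the deposited values are raw read counts per Ensembl gene, 1 file per mouse, not normalized. 181 of the 55421 gene IDs have no entry in GENCODE M21, which gave symbols, exon lengths and coordinates.

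As in the study, genes in the lowest 15% of variance were dropped (47108 kept). filterByExpr then stood in for an unstated abundance minimum, leaving 18979 genes. Counts were scaled by TMM and fitted over all 3 genotypes without covariates by edgeR 4.0.16 (robust quasi-likelihood, R 4.3.3), with Benjamini-Hochberg adjustment over all tested genes and a threshold of 0.05. CPM are counts relative to the TMM-scaled library size, and log2 values use a prior count of 2. The fit was tested on simulated data. Groups are apart where no mouse of one overlaps the other. Replicates of a group differed by 3.14 to 18.2 times counting noise (chi-square per gene, 31 pairs), so none is a repeat of another. P-values measure the spread between these mice, and sex is not given per mouse. Intervals and floors (3 counts) cover counting error only.

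Named members were those passing the test (up to 12 per comparison by adjusted p), the 3 largest and 3 smallest fold changes against WT, the 3 highest and 3 lowest levels per kb, and 5 members with special roles. From each other list, the called genes with the largest rise and fall were named, up to 2 each. The members and lists were chosen with earlier results of these data known. Alternatives were RLE and upper-quartile scaling, DESeq2 1.42.0, limma-voom 3.58.1, other filters, genotype pairs fitted alone, a replicate block, thinning, marker covariates, GC and length offsets, protein-coding genes alone and leaving out libraries. Same-numbered mice of different groups did not deviate together (correlations from -0.385 to 0.133 over tested genes). Mice with different numbers were not compared, so this cannot exclude that the numbers pair mice. Sequence matches, overlaps and figures used Python 3 with pandas and matplotlib.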

Additional observations from a re-analysis of the deposited data

Results flagged for a closer look

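In groups of 4 to 6 mice, 81 sets of CPM values, of the named members and of the summed mitochondrial and cytosolic ribosomal protein genes, were checked for a single mouse far from the rest of its group. Chance alone does this in about 1 group in 20, and 5 were found. Mrpl47 was low in WT replicate 2 at 37.2 CPM, where the nearest WT mouse was at 40.2. It was also low in FUN025/+ replicate 1 at 39.2, where the nearest was at 47.3. Mrpl45 was low in FUN025/FUN025 replicate 2 at 18.6 against 20 in the nearest mouse. Mrps22 was high in FUN025/+ replicate 2 at 11.7 against 9.04. Mrpl27 was high in FUN025/FUN025 replicate 5 at 34.3 against 26.8, and without that mouse Mrpl27 changed by -0.30 (adjusted p = 0.015) in place of -0.21 (adjusted p = 0.131) in FUN025/FUN025 against WT. FUN025/+ replicate 1 and WT replicate 2 also stood out in their lens (80.3 CPM) and rod (2413 CPM) marker sums, and their part in these values was not tested.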

How the results depend on the processing

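The median fold change of the members stayed below 0 in both comparisons with WT under every alternative run, from -0.14 to -0.05 with single libraries left out and from -0.13 to -0.06 otherwise. The number of members passing was less stable. Leaving out each library in turn gave 4 to 19 passing in FUN025/+ against WT, higher and lower together, and 1 to 12 in FUN025/FUN025 against WT, in place of 15 and 10. In those fits 7.48% to 14.2% of all genes passed in FUN025/+ and 7.93% to 14.3% in FUN025/FUN025. Besides WT replicate 4, leaving out WT replicate 3 or FUN025/+ replicate 1 (8 and 9 passing in FUN025/+), or WT replicate 2, WT replicate 3, or FUN025/FUN025 replicate 1, 2 or 4 (4, 4, 4, 3 and 6 in FUN025/FUN025) moved the count by over 1.5 times. Fitting FUN025/+ with WT alone gave 9, where 10.6% of all genes passed. Thinning all libraries to the smallest gave 6 in FUN025/FUN025, where 12.7% of all genes passed. Protein-coding genes alone gave 9 and 5, where 12.2% and 12.4% of the genes tested passed. Muscle and rod covariates gave 1 and 1, where 0.896% and 2.41% of all genes passed. They also moved the cytosolic medians to -0.26 and -0.25, and turned Mrps15 in FUN025/FUN025 to 0.00103 (adjusted p = 0.998). Leaving out WT replicates 2 and 4, chosen after the data were seen, gave 0 and 0, beside 3.21% and 4.33% of all genes. Leaving out the 3 libraries with the highest lens marker sums, also chosen then, gave 6 and 4, beside 11% and 8.39%. A replicate block, although nothing states that the numbers pair mice, gave 14 and 8 with medians of -0.12 and -0.11. With that block 10.6% and 11.3% of all genes passed. The causes were not tested. Scaling moved the median of all genes by under 0.1 on the log2 scale. Standard errors of single members were 0.0448 to 0.134 in FUN025/+, where the smallest change to pass was that of Mrpl24 (-0.15), while Mrpl12 at -0.21 ± 0.0735 did not pass, so changes of that size were detectable in some members only.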
